A study of Mus musculus with 10 samples.

Results

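The transcription factors that specify and maintain endothelial cells were followed here in cultured fetal mouse testes treated with GPI, an inhibitor of glycogen phosphorylase. The set comprised 10 genes named by symbol, Sox7, Sox17, Sox18, Erg, Fli1, Ets1, Tal1, Lyl1, Lmo2 and Gata2, and all 10 were found among the 24470 gene entries counted. The vehicle group consisted of 5 testes of C57BL/6 embryos at E12.5, each cultured with DMSO for 48 h. The GPI group consisted of the contralateral testes of the same 5 embryos, mice M1 to M5, cultured for the same time with 75 µM of CP 316819. Gonads were cultured with the mesonephros attached and were separated from it before RNA was extracted, so each library holds RNA of every cell type of a whole testis. Each embryo gave both gonads, and the mouse was therefore kept as a pair in every comparison. The question asked of these genes was how far their RNA differed between the treated and the untreated testis of an embryo. In bulk RNA of this kind, fewer endothelial cells and less RNA per endothelial cell cannot be told apart.

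The vehicle libraries of mice M1 to M5 held 11114376, 10203679, 10835341, 12220168 and 15590223 counts, and the GPI libraries 11025409, 15635322, 13639929, 11691690 and 11468668. The GPI library of M1 stood apart from the other 4 of its group, with a chi-square per degree of freedom of 21.7 to 27.8 against each, where the 6 pairs among those 4 lay between 7.48 and 11.002 and the vehicle pairs between 6.42 and 21.2. Normalised read counts are counts divided by the library size after TMM scaling, a correction for library composition, and multiplied by the mean scaled size. A log2 fold change is GPI against vehicle, given with its standard error, and a gene was called where the adjusted p was below a false discovery rate (FDR) of 0.05.

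The members belong to 3 families that act together in the vascular and blood lineages. Sox7, Sox17 and Sox18 form the SOXF group of HMG-box proteins, and Erg, Fli1 and Ets1 are ETS proteins that bind a GGAA core in the enhancers and promoters of most endothelial genes. Tal1 (also called SCL), its paralogue Lyl1, the adaptor Lmo2 and the zinc-finger protein Gata2 assemble with E proteins and Ldb1 into a complex that occupies E-box and GATA motifs in blood and endothelial precursors. In the fetal testis, endothelial cells migrate from the mesonephros, form the coelomic vessel and partition the tissue between the cords.

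Because these factors are known to bind one another's regulatory DNA, the start regions of 4 members for which RefSeq promoters were used, Erg, Tal1, Lyl1 and Gata2, were read for their motifs. Together they had 8 annotated starts, and the 250 bases before each were searched on both strands for the ETS core GGAA, an extended ETS motif CCGGAA that contains it, the GATA motif AGATAA, the SOX motif AACAAT and the E-box CAGNTG. The 3 windows that held the extended ETS, GATA or SOX letters are printed from RefSeq (GRCm38.p6), 5′ to 3′ on the strand of the gene, with those letters in capitals.
Lyl1, plus strand, chr8:84701207-84701456: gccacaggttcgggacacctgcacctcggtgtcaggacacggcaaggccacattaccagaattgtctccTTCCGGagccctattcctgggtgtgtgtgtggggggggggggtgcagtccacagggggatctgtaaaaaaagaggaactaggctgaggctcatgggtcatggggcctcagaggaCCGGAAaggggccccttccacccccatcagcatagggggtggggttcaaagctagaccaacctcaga
Tal1, plus strand, chr4:115056176-115056425: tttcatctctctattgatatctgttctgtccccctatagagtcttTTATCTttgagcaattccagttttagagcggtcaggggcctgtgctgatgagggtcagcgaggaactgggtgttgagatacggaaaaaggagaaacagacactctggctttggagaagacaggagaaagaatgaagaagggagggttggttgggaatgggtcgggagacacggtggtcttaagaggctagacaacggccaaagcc
Erg, minus strand, chr16:95459349-95459598: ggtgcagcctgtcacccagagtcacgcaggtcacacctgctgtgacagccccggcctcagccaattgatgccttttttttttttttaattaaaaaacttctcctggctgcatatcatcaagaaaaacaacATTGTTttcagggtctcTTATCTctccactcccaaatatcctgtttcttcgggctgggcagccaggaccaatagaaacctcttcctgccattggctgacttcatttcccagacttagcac
The Lyl1 window held the extended ETS motif at 2 places, -181 and -67 from the start, and the ETS core at 5. A GATA motif lay at -205 in the Tal1 window, beside 4 ETS cores. The Erg window belongs to a start 127245 bases inside the gene and held a GATA motif at -103, a SOX motif at -120, an E-box at -217 and 2 ETS cores. The Lyl1 window also held an E-box, at -235, and the other 6 windows held none. The window before the outermost Erg start held none of the 5 motifs, and that before the Gata2 start at 88198664 held 1 ETS core. Of 32851 upstream windows of the same length, 93.45% held GGAA, 12.03% CCGGAA, 9.99% AGATAA, 9.42% AACAAT and 44.82% CAGNTG. These matches describe letters in the windows and no binding was measured here.

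Every member that could be tested was lower with GPI. Of the 10 members, 9 passed the low-count filter and all 9 were called lower, where 11.9% of the 13941 tested genes were called lower, 11.1% higher and 22.9% in either direction. Their median log2 fold change was -2.67, with a range from -3.29 in Tal1 to -1.38 in Gata2, and the median over all tested genes was 0.02. All 10 members, Lyl1 included, were lower in the GPI-treated testis in 5 of 5 mice, as were 15.2% of tested genes. For Lyl1 in M2 this rests on scaling alone, 4 counts in each testis giving 4.77 normalised counts with vehicle and 3.24 with GPI. In 8 of the 9 tested members every GPI library lay below every vehicle library, a pattern found in 9.05% of tested genes. The exception was Gata2. Without mouse M1 all 9 were again called lower, with a median of -2.56, as were 10 of 10 endothelial markers, 2 of the other ETS genes in place of 3 and 8 erythroid markers in place of 7.

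**Figure D1:**
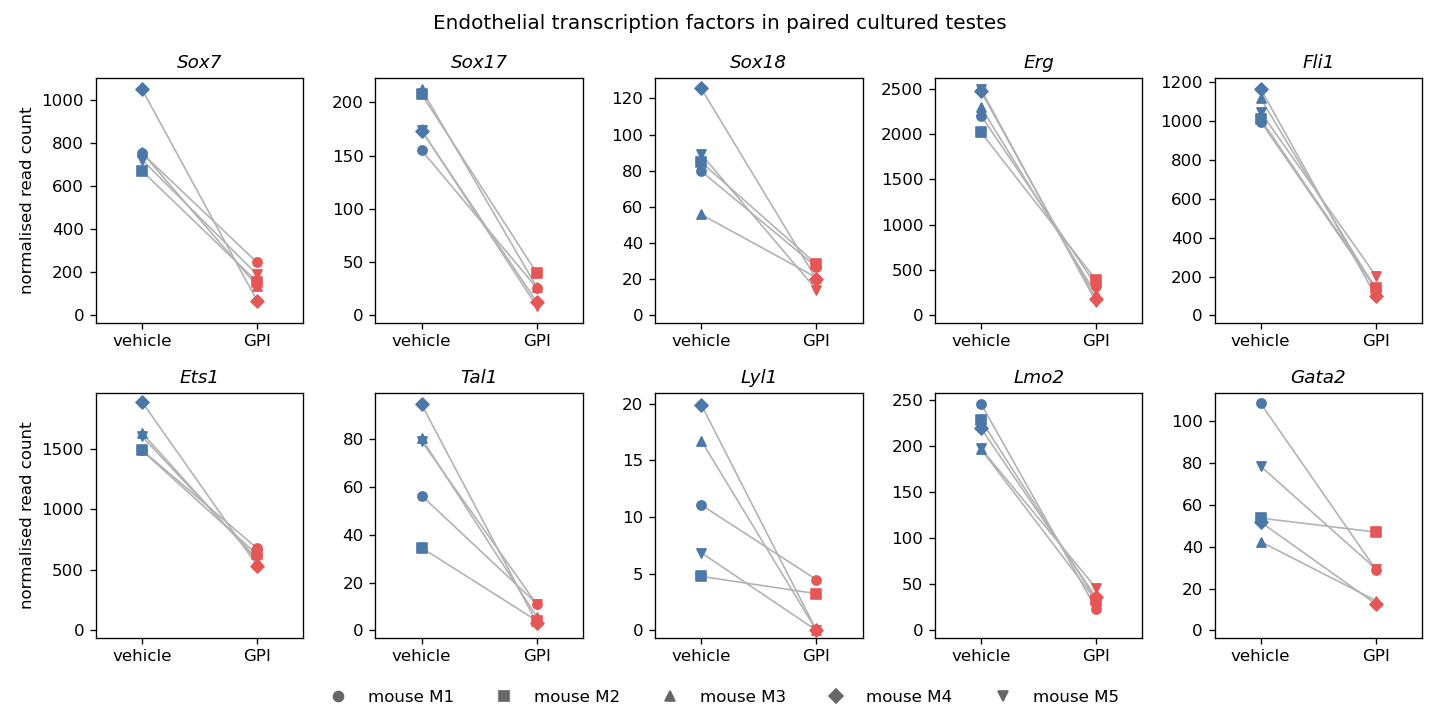
Normalised read counts (y axis, from 0) of the 10 members with vehicle and with GPI, 1 symbol per mouse, with a line joining both testes of a mouse. The lines fall in all 5 mice for each member, and Gata2 and Lyl1 show the least separation between groups.

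The SOXF genes act redundantly in vascular growth and in arterial and lymphatic identity. Sox7 was the most abundant of them. In mice M1 to M5 its normalised counts were 755, 673, 758, 1053 and 724.5 with vehicle and 246, 156.5, 138, 68.4 and 191 with GPI. Mouse M4 had both the highest vehicle and the lowest GPI value, and the groups did not overlap. Sox7 averaged 793 ± 149 and 159.9 ± 65.7 counts (SD, n = 5 each), which gave a log2 fold change of -2.35 ± 0.24 (SE; edgeR quasi-likelihood test, Benjamini-Hochberg adjusted p = 8.62e-06).

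Sox17, which favours arterial fate and is also used in endoderm, showed a lower log2 fold change than Sox7. Its counts were 155, 208, 212, 173 and 174 with vehicle against 25.7, 39.7, 26.6, 12.6 and 8.7 with GPI. The groups were far apart, and mice M4 and M5 were the lowest with GPI. Means of 184 ± 24.55 and 22.7 ± 12.4 (SD, n = 5 each) gave a log2 fold change of -3.08 ± 0.26 (edgeR quasi-likelihood test, Benjamini-Hochberg adjusted p = 1.63e-06), so that 11.8% of the vehicle level remained. Sox18, mutated in ragged mice and required in lymphatic specification, had the smallest fold change of the group. Vehicle-treated testes held 79.7, 84.7, 55.8, 125.5 and 89.1 normalised counts of Sox18 and GPI-treated testes 26.9, 28.4, 20.9, 19.99 and 14.2. The vehicle values were spread more widely than the GPI values, with mouse M3 lowest and M4 highest, and no library of the groups overlapped. Its log2 fold change was -1.95 ± 0.27 (edgeR quasi-likelihood test, Benjamini-Hochberg adjusted p = 0.000149), from 87.0 ± 25.1 to 22.1 ± 5.72 counts (SD, n = 5 each).

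Among the ETS members, Erg keeps endothelial cells differentiated and their junctions intact. Its normalised counts in mice M1 to M5 were 2203.5, 2020.2, 2297, 2470.3 and 2496 with vehicle and 329, 388, 231, 178 and 145 with GPI. Relative to the group mean, the vehicle libraries lay close together and those with GPI were spread widely, M2 being highest and M5 lowest. Erg fell from 2297 ± 197 to 254 ± 102 counts (SD, n = 5 each), a log2 fold change of -3.23 ± 0.20 (edgeR quasi-likelihood test, Benjamini-Hochberg adjusted p = 1.17e-07), and 10.6% of its vehicle level remained.

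Fli1, the closest relative of Erg and a factor of megakaryocytes as well as of endothelium, had 999, 1011, 1118, 1167 and 1048 counts with vehicle. With GPI it had 136.5, 143, 131, 97.8 and 204 counts. Mouse M5, lowest for Erg with GPI, was the highest for Fli1, and the groups were far apart. The log2 fold change of Fli1 was -2.93 ± 0.14 (edgeR quasi-likelihood test, Benjamini-Hochberg adjusted p = 1.50e-08), with means of 1068 ± 72.2 and 142 ± 38.4 (SD, n = 5 each).

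Ets1 is used by endothelial cells, lymphocytes and mesenchyme. It had 1490.4, 1486, 1633, 1889 and 1604 normalised counts with vehicle and 678, 627, 576, 535.5 and 589.5 with GPI. Its spread within each group was narrow and the groups did not overlap, but more of its RNA remained than of Erg or Fli1. Ets1 went from 1620.2 ± 164 to 601 ± 54.0 counts (SD, n = 5 each), a log2 fold change of -1.43 ± 0.10 (edgeR quasi-likelihood test, Benjamini-Hochberg adjusted p = 2.65e-07), so that 37.2% remained. Fli1 and Ets1 are neighbours on chromosome 9 (mm10), Fli1 from 32422204 to 32541452 and Ets1 from 32696042 to 32757820, with 154590 bases and no other tested entry between them.

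Of the members that form the SCL complex, Tal1 is the basic helix-loop-helix protein that starts the blood programme. In mice M1 to M5 Tal1 had 56.5, 34.6, 80.4, 94.6 and 79.2 normalised counts with vehicle and 11.2, 4.1, 5.7, 3.2 and 10.9 with GPI. Mouse M2 was lowest with vehicle and still lay above every GPI library. Tal1 had a log2 fold change of -3.29 ± 0.38 (edgeR quasi-likelihood test, Benjamini-Hochberg adjusted p = 2.74e-05), from 69.1 ± 23.6 to 7.001 ± 3.80 counts (SD, n = 5 each). At this depth, GPI libraries held only a few reads of the gene, and its standard error was the widest among the tested members. Its difference from Erg (-3.23 ± 0.20) was smaller than either error, and Erg was the lower of the pair without mouse M2, M3 or M4.

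Lyl1, which can replace Tal1 in adult blood stem cells, was too scarce to be tested after filtering. Its unscaled counts were 10, 4, 15, 20 and 9 with vehicle and 4, 4, 0, 0 and 0 with GPI. Mouse M2 had 4 counts in both testes, and 3 of the 5 GPI libraries had no count. The sums were 58 counts with vehicle and 8 with GPI. Where no low-count filter was applied, Lyl1 had a log2 fold change of -2.98 ± 0.97 (edgeR quasi-likelihood test, Benjamini-Hochberg adjusted p = 0.0278). The entry overlaps Nfix on the other strand, and the counting ignored strand, so reads of Lyl1 and Nfix cannot be told apart where they overlap. Nfix held 17941 counts over all libraries and had a log2 fold change of -0.34.

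Lmo2, the LIM-only adaptor that bridges Tal1 and GATA factors, was more abundant. It had 246, 228, 196.5, 219 and 197 normalised counts with vehicle and 23.5, 33.2, 32.3, 35.8 and 45.8 with GPI. Mouse M1 had the highest vehicle and the lowest GPI value, and the groups did not overlap. Lmo2 changed from 217 ± 21.0 to 34.1 ± 7.98 counts (SD, n = 5 each), a log2 fold change of -2.67 ± 0.19 (edgeR quasi-likelihood test, Benjamini-Hochberg adjusted p = 4.46e-07).

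Gata2 serves blood progenitors, mast cells and endothelium, and is also active in the developing urogenital tract. With vehicle it had 108.5, 53.7, 42.4, 51.8 and 78.5 normalised counts, and with GPI 29.1, 47.0, 14.3, 12.6 and 29.4. The groups overlapped, since M2 with GPI lay above M3 with vehicle, and the testes of M2 differed little from each other. Gata2 nevertheless passed the test, with a log2 fold change of -1.38 ± 0.31 (edgeR quasi-likelihood test, Benjamini-Hochberg adjusted p = 0.00464) and means of 67.0 ± 26.8 and 26.5 ± 13.95 (SD, n = 5 each). Pax8, a gene of mesonephric tubules, had 399.7, 101.4, 208, 131 and 53.3 normalised counts with vehicle and 166, 173, 104, 106 and 82.8 with GPI. Vehicle M1 and GPI M2 were the highest libraries of their groups for both Pax8 and Gata2, and the part of mesonephric cells in Gata2 was not tested. Without mouse M1 the log2 fold change of Gata2 was -1.26 ± 0.36 (edgeR quasi-likelihood test, Benjamini-Hochberg adjusted p = 0.0191).

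Blood cells also express the SCL complex members and Fli1, and their markers were read in the same libraries, where 11.9% of all tested genes were called lower. Of 9 tested erythroid markers 7 fell, their sum being 1881, 2396, 4008, 3462 and 3201 normalised counts with vehicle and 1838, 996, 951, 1071 and 2418 with GPI, with Hbb-y holding 61.2%. Of 9 tested macrophage markers 8 fell, from sums of 974, 665, 811, 753 and 653 to 457, 384, 360.4, 201 and 237.5, with Cd68 holding 21.5% of the counts over all libraries. Pan-leukocyte markers fell in 3 of 4 tested, from 409.7, 230.3, 287, 297 and 371 to 138, 139, 159.7, 54.7 and 86.1, with Ptprc at 50.2%, and 5 were called lower without mouse M2. Megakaryocyte markers fell in 2 of 3 tested, from 298, 310.3, 280.3, 502 and 432 to 158, 203, 239.6, 232.5 and 297.5, with Itgb3 at 83.7%, and 1 was called lower without mouse M4, without M5 or without the replicate block. Mast cell and progenitor markers summed to 917, 879, 1146, 1351 and 1121 with vehicle and 321, 275, 139, 144 and 145 with GPI, 1 of the 2 tested fell (2 without mouse M2), and 96.8% of the sum was Mecom, itself an endothelial gene. Fcer1a was at 0 in every library and Ms4a2 in every GPI library, and no other marker of these lists was at 0 throughout a group. The part of blood cells in the lower Tal1, Lyl1, Lmo2, Gata2 and Fli1 was not tested.

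Levels of the members were compared with each other per kilobase of exon. With vehicle, Erg stood highest at 663 ± 56.8 normalised counts per kb (SD, n = 5), above Fli1 at 306.5 ± 20.7, Sox7 at 240.3 ± 45.3 and Ets1 at 191 ± 19.3. Lmo2 followed at 100.3 ± 9.68, then Sox18 at 53.7 ± 15.5 and Sox17 at 38.6 ± 5.14. The scarcest were Tal1 at 15.8 ± 5.39, Gata2 at 12.4 ± 4.96 and Lyl1 at 6.60 ± 3.57 per kb. In this order the ranges of Fli1 and Sox7, of Sox7 and Ets1, of Sox18 and Sox17, of Tal1 and Gata2 and of Gata2 and Lyl1 overlapped. The other neighbours were separated in all 5 vehicle libraries.

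With GPI the order of the members was less distinct. Erg (73.4 ± 29.5 per kb) and Ets1 (70.9 ± 6.37) now overlapped at the top, followed by Sox7 (48.5 ± 19.9) and Fli1 (40.9 ± 11.03). Ets1, behind Erg, Fli1 and Sox7 with vehicle, thus came next to Erg. Lmo2 had 15.8 ± 3.69 and Sox18 13.6 ± 3.53 normalised counts per kb, and their ranges overlapped. Gata2 (4.91 ± 2.59), Sox17 (4.75 ± 2.59), Tal1 (1.60 ± 0.87) and Lyl1 (0.86 ± 1.20) came last. Only Fli1 with Lmo2 and Sox18 with Gata2 were neighbours whose ranges did not overlap.

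**Figure D2:**
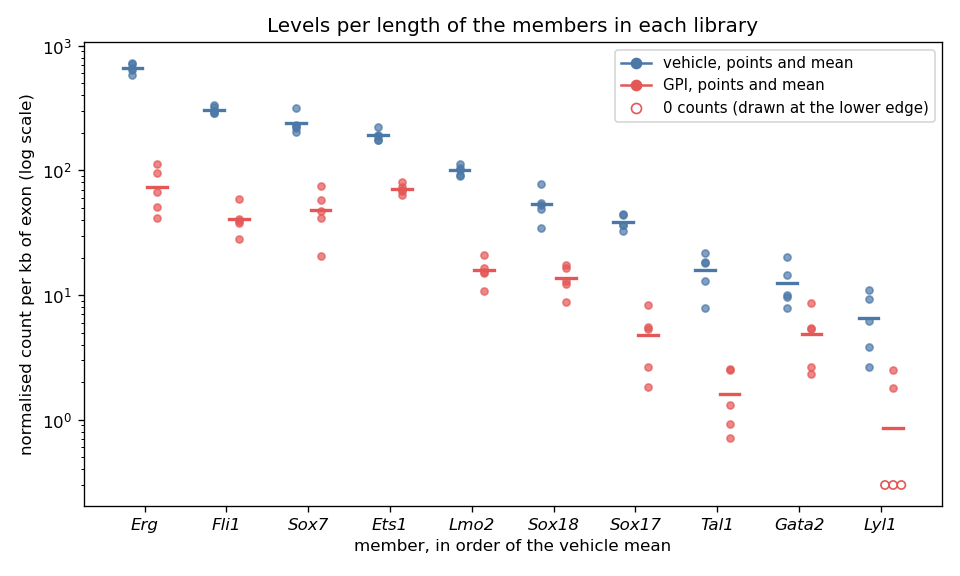
Normalised counts per kb of exon (log axis) of each member in each library, in order of the vehicle mean, with means as bars; open points are libraries with 0 counts, drawn at the lower edge. Erg leads with vehicle at 663 per kb, and with GPI it meets Ets1 at 73.4 and 70.9 per kb.

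Because Ets1 kept more of its RNA than its relatives, the makeup of the ETS group shifted. This comparison was chosen after the values were seen and carries no test. Ets1 made up 16.01%, 16.7%, 16.4%, 17.5% and 15.6% of the summed per-length level of Erg, Fli1 and Ets1 in the vehicle libraries of M1 to M5. In the GPI libraries its share was 37.4%, 32.6%, 39.5%, 44.3% and 41.0%. Every GPI share of Ets1 was above every vehicle share. The share of Erg went from 57.1 ± 1.60% to 38.6 ± 9.37% (SD, n = 5 each) and was lower in all 5 mice, while Fli1 held 26.4 ± 1.10% and 22.5 ± 6.86% and was higher with GPI in M5 alone. Within the SOXF group, Sox7 held 72.1 ± 2.71% with vehicle and 70.8 ± 10.4% with GPI, a difference smaller than the spread between mice. Sox17 went from 11.9 ± 2.62% to 7.26 ± 3.34% and was lower in all 5 mice, and Sox18 from 16.01 ± 2.83% to 22.0 ± 8.21%.

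**Figure D3:**
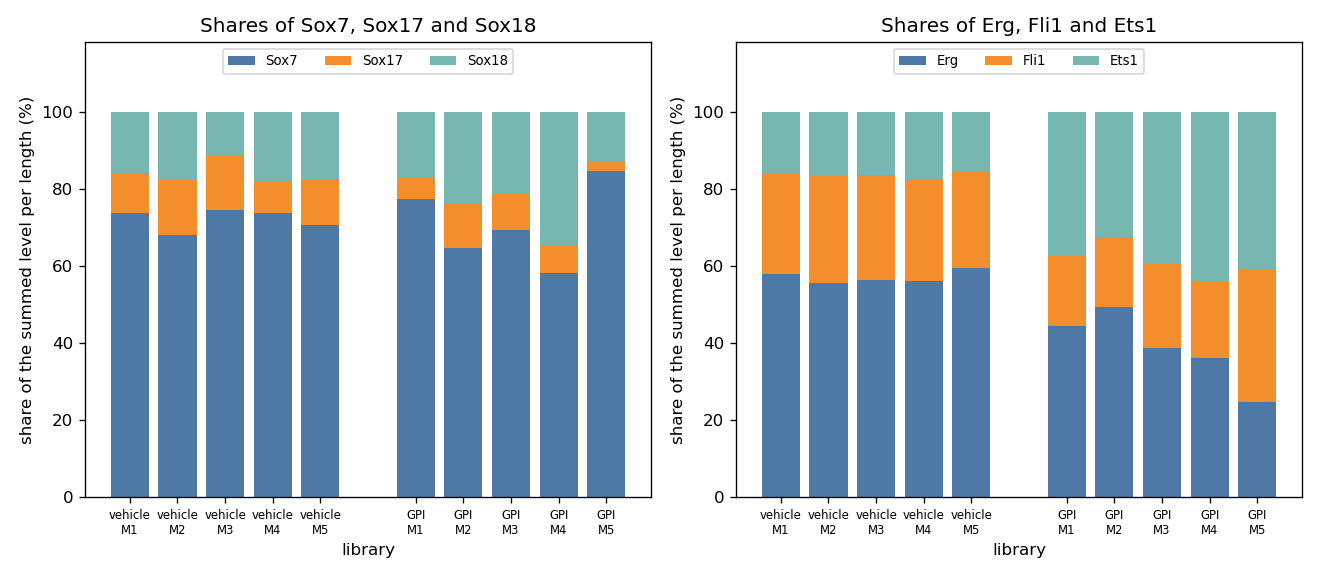
Share (%) of each gene in the summed normalised counts per kb of its group in each library, SOXF genes on the left and ETS members on the right, 5 vehicle and 5 GPI bars each. The share of Ets1 is 15.6% to 17.5% with vehicle and 32.6% to 44.3% with GPI.

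The rank of the members within their wider families changed too, given here as a description. Among 17 tested ETS genes, Erg shared the top with Gabpa with vehicle (663 ± 56.8 and 661 ± 66.4 normalised counts per kb, ranges overlapping) and was in the tenth place with GPI, while Fli1 went from the third to the thirteenth place and Ets1 from the seventh to the eleventh. Erg, Fli1 and Ets1 together held 35.0 ± 1.49% of the summed level of these ETS genes with vehicle and 9.55 ± 1.68% with GPI (SD, n = 5 each). Among 14 tested SOX genes, Sox7 moved from the fourth to the sixth place, Sox18 from the sixth to the tenth and Sox17 from the seventh to the last. The SOXF share of the summed SOX level was 21.0 ± 4.16% with vehicle and 4.38 ± 1.48% with GPI. Both shares include changes of the other family genes.

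Of 25 tested SOX and ETS genes other than the members, 5 were called lower (20%, against 11.9% of all tested genes). Of 11 other SOX genes tested, 2 fell, 2 rose and 7 did not pass, with a median log2 fold change of 0.21. Sox13 (-0.77 ± 0.20) and Sox15 (-2.22 ± 0.50) were lower, while Sox8 (1.43 ± 0.16) and Sox9 (0.59 ± 0.09), SOXE genes of Sertoli cells, were higher. The count of lower SOX genes was 1 without mouse M2 and 1 without mouse M3. Of 14 other ETS genes tested, 3 fell, 1 rose and 10 did not pass, and the median was -0.17. The lower ones were Ets2 (-1.56 ± 0.13), which adjoins Erg on chromosome 16 at a distance of 115814 bases, Elk3 (-0.99 ± 0.08), a repressor active in endothelium, and Etv1 (-0.41 ± 0.12). Gabpa, an ETS gene of nearly every cell type, had 3759 ± 378 normalised counts with vehicle and 3264 ± 225 with GPI, a log2 fold change of -0.20 ± 0.08 (edgeR quasi-likelihood test, Benjamini-Hochberg adjusted p = 0.0807).

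Of 14 tested relatives and partners of the SCL complex members, 6 were called in either direction (42.9%, against 22.9% of all tested genes) and 3 of them lower. Of 5 other TAL, LMO and GATA genes tested, Lmo4 (0.82 ± 0.11) and Gata4 (0.53 ± 0.09), a gonadal GATA factor, rose and the other 3 did not pass. Gata5 was at -1.51 ± 0.63 (edgeR quasi-likelihood test, Benjamini-Hochberg adjusted p = 0.109), and 1 gene of this list was called lower by DESeq2 and 1 without mouse M2. All 9 listed partners of the complex were tested, of which 3 fell, 1 rose and 5 did not pass. Runx1 (-1.11 ± 0.16), the E protein gene Tcf4 (-0.57 ± 0.07) and the LIM-domain-binding gene Ldb2 (-0.51 ± 0.08) were lower, and the corepressor gene Cbfa2t3 was higher (1.13 ± 0.12). The partner Ldb1 had a log2 fold change of -0.17 ± 0.09, against -2.67 for Lmo2. The E protein genes Tcf3 and Tcf12, whose products pair with Tal1 and Lyl1, were at -0.22 ± 0.10 and -0.03 ± 0.08.

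**Figure D4:**
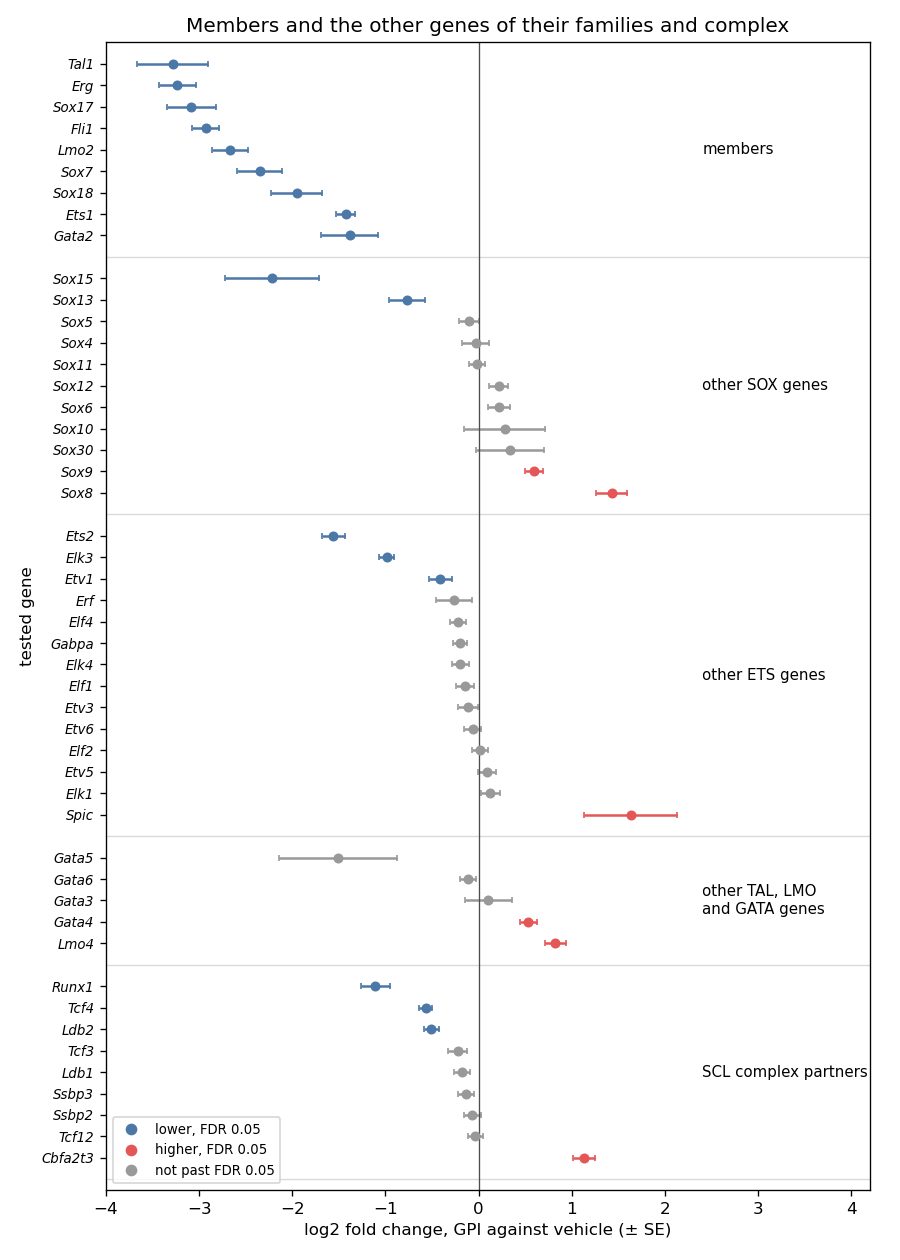
Log2 fold change of GPI against vehicle (x axis, points, with SE as bars) for the 9 tested members and the tested genes of their families and complex, coloured by direction at an FDR of 0.05. The members lie between -3.29 and -1.38, and most of the other genes lie near 0.

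All 10 endothelial markers (Pecam1, Cdh5, Kdr, Tek, Tie1, Emcn, Cldn5, Esam, Egfl7 and Plvap) were called lower, with a median log2 fold change of -3.10 and a range from -4.16 to -2.28. They summed to 7179.8, 7691, 7052, 8065 and 7292 normalised counts with vehicle and to 885, 1059, 718, 586 and 747.5 with GPI. Per kilobase of exon, Cdh5 stood highest with vehicle (672.7 ± 52.45 normalised counts per kb) and with GPI (55.28 ± 15.06). Kdr had 167 ± 11.95 per kb with vehicle and 31.27 ± 8.199 with GPI, and none of the markers was at 0 throughout a group. Of 14 other endothelial transcription factor genes tested, 9 fell, 1 rose and 4 did not pass. The lower ones included Bcl6b (-3.49 ± 0.20), Epas1 (-1.25 ± 0.08) and Hey1 (-1.94 ± 0.19), and Prox1 was higher (1.01 ± 0.22). Arterial genes, some of them downstream of Sox17, fell in 9 of 9 tested, with Gja5 at -5.02 ± 0.32. Venous genes fell in 2 of 5, and of 4 lymphatic genes 1 fell, 2 rose and 1 did not pass, where 11.9% of all tested genes fell and 11.1% rose. The lower venous genes were Flt4 (-3.22 ± 0.12) and Nrp2 (-1.04 ± 0.10). Nr2f2, also listed as an interstitial progenitor marker, held 75.5% of the venous counts over all libraries and was at -0.18 ± 0.07. Pdpn held 75.6% of the lymphatic counts and was higher (0.42 ± 0.10). The part of cells other than endothelium in both lists was not tested. The lower lymphatic genes numbered 2 without mouse M3.

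Each member was then compared with the summed endothelial markers within a mouse, to see whether it moved by more or by less. The log2 ratio of the summed markers was -3.02, -2.86, -3.29, -3.78 and -3.28 in mice M1 to M5 (mean -3.25 ± 0.35, SD). Cdh5 held 37.1% of the summed counts over all libraries. The log2 fold changes of the single markers ran from -4.16 in Pecam1 to -2.28 in Tek, so a member can fall by less than the sum and still resemble some markers. The test was an exact two-sided sign-flip permutation over 5 mice, whose smallest possible p is 0.0625, so that no member could pass 0.05. Ets1 fell by less than the markers in each mouse, with differences of 1.88, 1.62, 1.79, 1.96 and 1.84 on the log2 scale (mean 1.82 ± 0.13, SD; exact p = 0.0625). These differences were far larger than their spread. Gata2 differed by 1.19, 2.67, 1.84, 1.90 and 1.93 (mean 1.91 ± 0.53; exact permutation p = 0.0625), M2 being the highest. Sox18 also fell by less in 5 of 5 mice, by a mean of 1.37 ± 0.42 (exact permutation p = 0.0625). Without M1 the means of Ets1, Gata2 and Sox18 were 1.804, 2.085 and 1.333 (exact permutation p = 0.125 for each, the smallest possible with 4 mice).

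For Erg the comparison was centred near 0, with differences of 0.28, 0.48, -0.01, -0.003 and -0.81 and a mean of -0.01 ± 0.49 (SD; exact permutation p = 0.8125). For Sox17 the mean difference was 0.17 ± 0.54 (exact permutation p = 0.5625) and for Tal1 0.24 ± 0.54 (exact permutation p = 0.375), both smaller than the spread between mice. Fli1 differed by 0.16, 0.05, 0.22, 0.23 and 0.93 (mean 0.32 ± 0.35; exact permutation p = 0.0625), M5 being the highest, and its mean was 0.17 without M5. Sox7 had a mean difference of 0.85 ± 0.62 (exact permutation p = 0.125) with M4 on the other side of 0, and Lmo2 of 0.62 ± 0.66 (exact permutation p = 0.1875) with M1 on the other side. With each mouse left out in turn, the means ran from 0.087 to 0.407 for Sox17, the highest being without M5, and from 0.078 without M1 to 0.408 without M4 for Tal1. Those of Erg ran from -0.134 to 0.188, of Fli1 from 0.166 to 0.386, of Sox7 from 0.715 to 1.098 and of Lmo2 from 0.468 to 0.841. Against the mean of the markers' log2 ratios in place of their sum, the differences were 0.137 for Fli1 (exact permutation p = 0.875), 0.054 for Tal1, -0.007 for Sox17 and -0.193 for Erg. The value of Lyl1, 1.20 ± 1.04, moved to 0.04 with a prior count of 0.5 in place of 2, and its few reads therefore give no usable comparison.

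**Figure D5:**
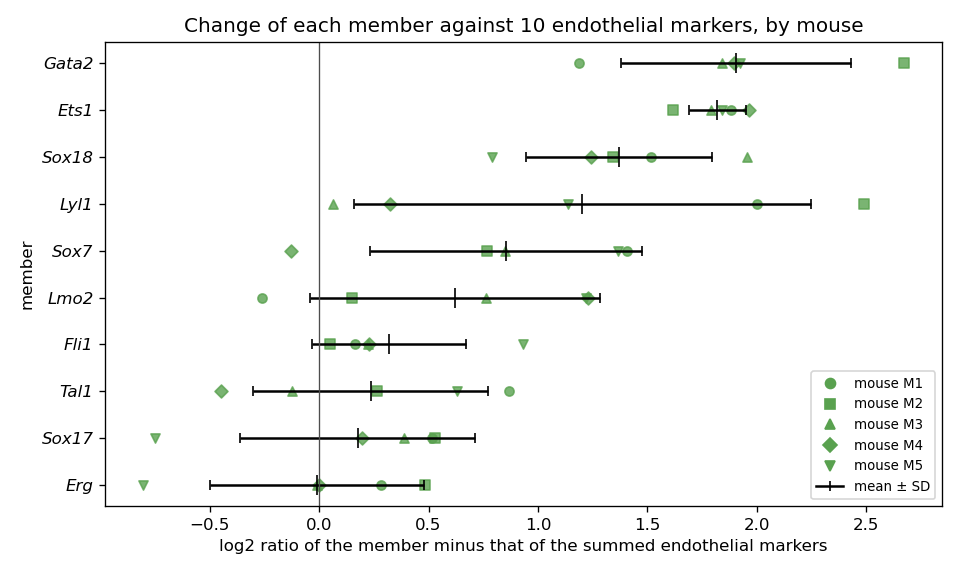
Log2 ratio of GPI to vehicle of each member minus that of the 10 summed endothelial markers (x axis), 1 symbol per mouse, with the mean and SD in black. Ets1 lies between 1.62 and 1.96 in the 5 mice, and Erg is centred on -0.01.

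The members also varied by mouse. Among the 9 tested members, 6 had their lowest GPI to vehicle ratio in M4, and the median ratio over these members was -3.55 there, against -2.15 in M1, -2.33 in M2, -2.53 in M3 and -2.35 in M5 on the log2 scale. The endothelial markers were likewise lowest in M4, at -3.78. The other 3 differed from this pattern, Sox17 (-4.04) and Erg (-4.09) being lowest in M5 and Lmo2 (-3.28) in M1.

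The genes most like the members over the 10 libraries, by Pearson correlation with the mean of their standardized log2 counts, were Plau (0.998), Cd93 (0.998), Flt1 (0.997), Plxnd1 (0.996) and Bcl6b (0.996). The libraries divide by treatment, so this likeness mainly carries the difference between groups, and 532 of 11098 candidate genes reached 0.9. Between pairs of the 9 tested members, r over the same libraries ran from 0.748 to 0.987 with a median of 0.923. Flt1, a VEGF receptor gene, fell furthest of the 5, from 705 ± 72.0 to 19.4 ± 7.75 normalised counts (SD, n = 5 each), a log2 fold change of -5.18 ± 0.18.

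For position, genes next to the members on the chromosome were read. The nearest tested entries on both sides that overlap no member, which leaves out Nfix at Lyl1, were 18 genes other than members, chosen after the members' values were seen, of which 5 were called (27.8%, against 22.9% of all tested genes), 2 lower and 3 higher, with a median log2 fold change of 0.08. The 2 lower ones were Ets2 beside Erg and Arhgap32 beside Fli1 (-0.24 ± 0.08), and the higher ones Xkr4 beside Sox17 (0.85 ± 0.22), Dand5 beside Lyl1 (0.86 ± 0.22) and Rpn1 beside Gata2 (0.51 ± 0.08). Stil, 13223 bases from Tal1, was at -0.11 ± 0.09, and Trmt1, 1649 bases from Lyl1, at 0.03 ± 0.15. Prpf6 and Tcea2 on either side of Sox18 were at -0.03 ± 0.09 and 0.56 ± 0.33, and Pinx1 beside Sox7 at 0.06 ± 0.15.

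Other cells of the testis differed between the groups as well, and their part in the share of RNA that the members make up was not tested. Of the pericyte and smooth muscle markers 7 of 9 fell, with a median log2 fold change of -1.55 and a range from -4.32 in Rgs5 to -0.12 in Acta2. Of 6 tested germ cell markers 5 fell, with a median of -4.76 and a range from -5.20 in Dppa3 to -0.50 in Dnd1. All 4 tested fetal Leydig markers and 5 of 7 Sertoli markers rose, and of 5 interstitial progenitor markers 2 fell and 1 rose. Of all tested genes 11.9% fell and 11.1% rose. Without mouse M2, M3 or M4, neither of the 2 was called lower by edgeR.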

How the data were processed

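RNA of 10 cultured testes was sequenced. The authors deposited raw counts per gene, made per the submitters' processing notes with STAR 2.5 and featureCounts of Subread 1.5.0-p1 on mm10, without strand. Members were rows with the 10 symbols. The members and gene lists were chosen with earlier results of these data known.

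All counts were scaled by TMM and tested with edgeR 4.0.16 (glmQLFit) with mouse and treatment as terms, after filterByExpr (minimum count 10, total 15), which kept 13941 of 24470 entries, with p-values adjusted over these. Each standard error is the size of the fold change over the square root of F. R 4.3.3, limma 3.58.1, DESeq2 1.42.0 and Python 3.11.15 were used, and the procedure was tested on simulated data. Exon lengths are unions of GENCODE M21 exons, matched for 95.43% of tested genes. Ratios within a mouse used a prior count of 2. No column of other samples was found.

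Pairing follows from the embryo that gave both gonads. Deviations from the group mean correlated by 0.06 in gonads of 1 mouse and by -0.01 in those of different mice (exact permutation over 120 pairings, one-sided p = 0.05). Chi-square per degree of freedom between libraries of a group was 6.42 or more, so none was a duplicate.

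Named genes were the 10 members, in every other list the 3 with the smallest p and the 2 with the highest level per length, and the 5 most like the members (candidates averaged 50 or more counts over the 10 libraries). Genes named outside this rule, among them the neighbours, Sox13, Ldb1, Tcf3 and Nfix, were chosen after their values were seen. The summed mesonephric tubule markers are not reported here. Other settings tried were limma-voom and DESeq2, scaling by total counts or by DESeq2 size factors, a fit with no replicate block, no filter or at least 10 counts in every library, a threshold of 1.5-fold (glmTreat), each mouse left out and, against the markers, their mean log2 ratio and a prior count of 0.5.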

Additional observations from a re-analysis of the deposited data

Results flagged for a closer look

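Single libraries stood apart from the other 4 of their group in 11 of 170 groups examined for 85 named genes, judged by the gap to the nearest library over the range of the group, with a critical value of 0.71. Chance flags about 1 in 20 groups, here 8.5. Among the members this held for Sox7, with 1052.9 normalised counts in vehicle M4 where the others lay between 673 and 758.2. Among family genes and partners it held for Sox4 (2764.8 in vehicle M2, others up to 1585.4), Gabpa (3652.3 in GPI M3) and Runx1 (220.5 in GPI M1, others up to 122.4). Vehicle M2 was also apart for Pdpn (712.4), Cd53 (31.0, others from 70.3) and Tyrobp (79.9), vehicle M3 for Notch4 (368.5) and Reln (236.7), and vehicle M4 for Efnb2 (4174.6) and Pf4 (65.7, others up to 29.9). The values of all these are normalised counts.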

How the results depend on the processing

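Under each of 13 alternatives the tested members kept their direction and their call, with Lyl1 called as well without the filter (10 members) and 7 of 7 called with at least 10 counts in every library, which set Sox17 and Tal1 aside. The median log2 fold change of members ran from -2.82 to -2.36, and Gata2 came nearest to losing its call, at an edgeR adjusted p of 0.0483 against a fold change of 1.5, with adjusted p from 0.000417 to 0.0483 over its alternatives. Without the replicate block, 3108 genes were called in place of 3198, and the pairing changed no call of a member. The number of called genes fell to 878 with glmTreat at 1.5-fold (622 lower, 256 higher) and stayed within 1.5 times of 3198 elsewhere, but genes called higher numbered 969 without mouse M3 and 1024 without M4 in place of 1544. Of the lists, other SOX genes had 1 called lower with at least 10 counts in every library, 1 against a fold change of 1.5, and 1 to 2 when mice were left out, other ETS genes 5 with total counts only, other TAL, LMO and GATA genes 1 with DESeq2 and 0 to 1 when mice were left out, SCL complex partners 1 against a fold change of 1.5, and other endothelial transcription factors 5 of 10 tested with at least 10 counts in every library. Lymphatic genes had 2 called lower with DESeq2, with total counts and with no filter, and megakaryocyte markers 1 with the stricter filter and against a fold change of 1.5. The stricter filter left 5 macrophage, 1 pan-leukocyte, 4 erythroid and 1 germ cell marker called lower. At 1.5-fold these were 5 for macrophages and 0 for interstitial progenitors, and mast cell and progenitor markers had 2 with DESeq2 and with no filter. That filter tests fewer genes, and the cause of the other shifts was not tested. Against the mean of the markers' log2 ratios, the difference of Ets1 was 1.64 and that of every other member was lower too. With a prior count of 0.5 the difference of Lyl1 was 0.038, of Sox17 0.073 and of Tal1 -0.041. Depth limits Lyl1 and, with GPI, Tal1.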
